A study of Mus musculus with 135 samples.

Results

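Major histocompatibility complex (MHC) class I molecules and their peptide loading machinery were examined in single haematopoietic stem cells (HSCs) from a young and an old mouse, over 9 genes given as a list of names: *H2-K1*, *H2-D1*, *B2m*, *Tap1*, *Tap2*, *Tapbp*, *Calr*, *Pdia3* and *Nlrc5*. All 9 were found in the deposited read count table of 15181 RefSeq genes. The cells were sorted from bone marrow as live lineage-negative Sca-1+ c-Kit+ (LSK) CD150+CD48- cells, and both mice were C57BL/6 and carried the Vwf-eGFP reporter, a transgene in which regulatory sequence of *Vwf* drives a fluorescent protein. The young mouse was 2 to 3 months old and gave 61 cells, and the old mouse was 20 to 25 months old and gave 74 cells. Of these, 52 young and 62 old cells passed the study's limits on mapped reads, mitochondrial reads and detected genes and were used here.

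Class I molecules are carried by nearly all nucleated cells and show peptides from inside the cell to CD8+ T cells and natural killer cells. A heavy chain pairs with the light chain, beta-2-microglobulin, in the endoplasmic reticulum (ER), and is held there by the loading complex until a peptide is bound. The peptides are cut by the proteasome and pumped into the ER by a transporter of paired subunits. Interferon, and the transactivator NLRC5, are known to raise transcription of many of these genes.

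Between the ages, 8 of the 9 genes had a higher mean level in the old cells, as did 46.2% of all genes with a count. *Calr*, the chaperone calreticulin, had a lower one. The number of higher genes was 7 over all deposited cells and 6 with medians over cells. The genes of the complex itself, *H2-K1*, *H2-D1* and *B2m*, were expressed in every cell of both ages and differed by 0.50 to 0.72 on the log2 scale. By mean level, *Pdia3*, the thiol oxidoreductase of the loading complex, was 2.52-fold higher in the old cells, while *Calr* was 2.14-fold lower. From summed counts the differences were 0.68 for *Pdia3* and -0.49 for *Calr* on the log2 scale, both below 2-fold. *Tap1*, *Tap2* and *Nlrc5* were expressed in fewer than 50% of the cells of either age. A level is throughout the mean over cells of log2(CPM + 1), where CPM is the count scaled to 1000000 reads counted in a cell, and a difference is old minus young on this scale. Cells with log2(CPM + 1) above 2 were counted as expressing a gene.

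Each age was 1 mouse, so the cells are not replicates of an age, differences between the mice were not tested, and no p-values are given. Between 273236 and 5688706 reads were counted per young cell and between 276316 and 4086659 per old cell, with medians of 2798990 and 2116024. The median share of reads mapped was 90.3% against 83%, and the median number of genes expressed was 4115.5 against 3901.5, so that these measures moved with age, and their part in the differences was not tested beyond thinning to equal depth. *Xist* was expressed in 50 of 52 young cells and in 8 of 62 old ones and a Y-linked gene in 2 and 58, and the labels tie no cell to an experiment or capture run, so that age, mouse, sex-linked genes, experiment and capture cannot be told apart. The 2 young and 8 old cells that went against the other cells of their mouse expressed both kinds of gene, and values without them are given below where they matter. Among transcripts of the sort, *Kit* was found in 94.2% (young) and 98.4% (old) of cells, *Ly6a* (Sca-1) in 53.8% and 69.4%, and *Slamf1* (CD150) in only 17.3% and 24.2%. *Cd48* was found in 1 young and 0 of 62 old cells, which allows a share of cells with detected transcript of up to 4.84% (a floor of 3 cells). Other genes listed for the negative gate were found as well. *Itgam* was found in 8 young and 1 old cells, *Cd4* in 5 and 0, *Cd8a* in 3 and 3, and *Ptprcap* in 98.1% and 90.3% of cells.

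The sequences below show why reads of the heavy chains are hard to assign, and which control elements lie next to the genes whose levels are described. Class I heavy chain genes arose by duplication. A stretch of 51 bases, the length of the reads, begins at base 156 of the *H2-K1* coding sequence and at base 165 of that of *H2-D1* (GENCODE vM21 transcripts), and is held letter for letter by 4 genes, the others being *H2-Q4* and *Gm11131*. No part of it is marked.
H2-K1 and H2-D1 coding stretch: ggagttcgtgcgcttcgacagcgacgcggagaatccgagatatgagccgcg
Of the 1569 windows of 51 bases in the *H2-K1* transcript, 8.22% also occurred in a transcript of another gene, and so did 13.7% of the 2052 windows of *H2-D1*. The 2 genes shared 102 windows with each other. *B2m*, *Pdia3* and *Nlrc5* shared 0 windows with any other gene and *Calr* shared 0.422%, all with its pseudogene *Calr-ps*. For *Tap1* the share was 6.41%, mostly with the overlapping proteasome gene *Psmb9*, for *Tap2* 12.4% and for *Tapbp* 20.9%, mostly with the non-coding genes *Gm15821* and *Gm19412*, which are not analysed here. Against genes of the count table, the share was 0.708% for *Tap2* and 1.05% for *Tapbp*, and was as above for *H2-K1*, *H2-D1* and *Tap1*. The authors kept 1 alignment per read, so a read from a stretch shared by separate genes was placed once. The values of *H2-K1* and *H2-D1* are uncertain in part for this reason. The value of *Tap1* is uncertain in part because the gene to which reads in the overlap with *Psmb9* were counted is not known.

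The genes lie on 3 chromosomes (GRCm38, the build of the counts). *Tapbp* (chr17:33915899-33929292), *H2-K1* (chr17:33996017-34000347), *Tap1* (chr17:34187553-34197225), *Tap2* (chr17:34203527-34216321) and *H2-D1* (chr17:35262730-35267499) are in the MHC on chromosome 17, all on the plus strand except *H2-K1*. *Pdia3* (chr2:121413775-121438687) and *B2m* (chr2:122147686-122153083) are both on the plus strand of chromosome 2. *Calr* (chr8:84841850-84846934, minus strand) and *Nlrc5* (chr8:94434356-94527272, plus strand) are on chromosome 8. RefSeq promoter windows (GRCm38.p6, 250 bases before to 50 after a start) were found for 7 of the 9 genes, all but *Tap2* and *Nlrc5*. The windows were searched on both strands for elements known from such genes. The core of the interferon-stimulated response element, GAAA followed after 2 bases by GAAA, was in the window of *B2m* and in 3.44% of all 32851 windows. The ER stress response element, CCAAT followed after 9 bases by CCACG, was in that of *Calr*, on the opposite strand to the gene, and in 0.119% of all windows. The CCAAT box, which is contained in the ER stress element, was in all 7 windows and in 37.4% of all. Neither of the other patterns, spelled exactly as above, was matched in the windows of *H2-K1*, *H2-D1*, *Pdia3*, *Tapbp* or *Tap1*. A match is a run of letters, not a measured binding site. Forms of an element spelled otherwise were not searched for, so a window without a match may still hold one. The heavy chains were compared with each other, and the longest run of letters common to the bases upstream of *H2-K1* and *H2-D1* was 47 bases long. It began 141 bases before the start of *H2-K1* printed here and 201 before that of *H2-D1*, and was in the windows of these genes alone, 3 windows of the 32851 since *H2-K1* has 2 starts.

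The bases upstream of *H2-K1* (chr17:34000348-34000597, minus strand), *B2m* (chr2:122147437-122147686, plus strand) and *Calr* (chr8:84846932-84847181, minus strand) are printed 5′ to 3′ along the gene, and show a heavy chain, the light chain and the gene that was lower in old cells. Capitals mark the run shared with *H2-D1*, the interferon response core and the ER stress element in turn.
H2-K1 upstream: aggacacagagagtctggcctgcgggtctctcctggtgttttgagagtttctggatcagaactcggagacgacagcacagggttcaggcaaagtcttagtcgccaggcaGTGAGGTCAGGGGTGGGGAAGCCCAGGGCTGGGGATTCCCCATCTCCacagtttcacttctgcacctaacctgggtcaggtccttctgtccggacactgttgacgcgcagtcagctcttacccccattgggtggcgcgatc
B2m upstream: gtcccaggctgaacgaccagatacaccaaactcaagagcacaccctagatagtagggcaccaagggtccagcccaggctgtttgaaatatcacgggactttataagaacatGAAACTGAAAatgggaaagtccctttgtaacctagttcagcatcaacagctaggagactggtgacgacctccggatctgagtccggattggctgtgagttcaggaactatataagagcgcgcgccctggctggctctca
Calr upstream: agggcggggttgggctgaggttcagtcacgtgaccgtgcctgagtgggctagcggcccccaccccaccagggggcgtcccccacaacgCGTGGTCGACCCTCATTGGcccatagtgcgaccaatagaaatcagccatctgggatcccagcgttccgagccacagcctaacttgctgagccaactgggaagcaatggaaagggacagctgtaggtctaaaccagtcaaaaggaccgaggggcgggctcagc

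The order of the 9 genes was first set per length, as mean CPM per kb of the longest coding transcript that the annotation marks as principal. *B2m* came first with 3381 CPM per kb in young and 4841 in old cells, followed by *H2-K1* with 880.6 and 1088 and *H2-D1* with 344.3 and 588.5. *Calr* had 116.1 and 83.08, *Pdia3* 94.37 and 152.7, and *Tapbp* 63.1 and 69.44. The lowest were *Tap1* with 31.95 and 37.99, *Tap2* with 12.84 and 18.8, and *Nlrc5* with 5.214 and 16.5. On the scale of log2(CPM per kb + 1) the order of mean levels differed in part. *Tap2* rather than *Nlrc5* was lowest in both ages, and *Tapbp* was above *Pdia3* in young cells (4.62 and 4.36) and above *Calr* in old cells (4.89 and 4.41). In this order, the gap between neighbours exceeded the larger of their SDs over cells in 2 places in either age. The first was between *B2m* and *H2-K1* (2.27 in young and 2.30 in old). The second was between *H2-D1* and the next gene, which was *Calr* in young cells (2.71) and *Pdia3* in old cells (3.29). *H2-K1* and *H2-D1* did not differ beyond their spread, nor did the neighbours among the other 6 genes.

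**Figure D1:**
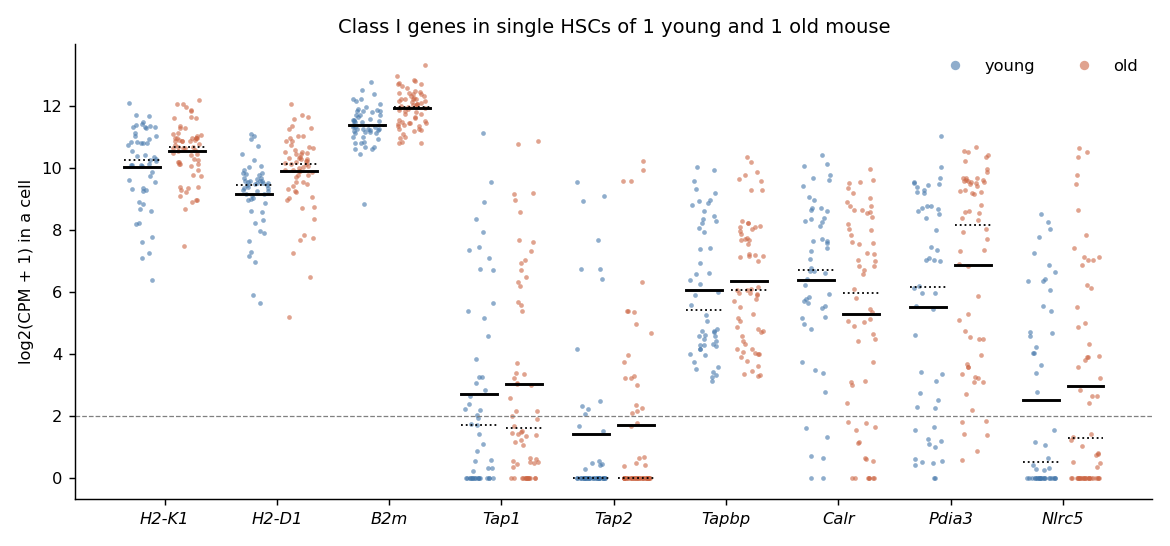
Each point is a cell, plotted at its log2(CPM + 1) for the gene named on the x axis (52 young cells in blue, 62 old cells in orange). Solid bars are means, dotted bars medians, and the dashed line is the limit of 2 for an expressing cell. The heavy chains and *B2m* are high in every cell, *Calr* and *Pdia3* spread over the whole range, and *Tap1*, *Tap2* and *Nlrc5* are at 0 in many cells.

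The heavy chains present the peptide. *H2-K1*, the Kb heavy chain in this strain, was at 6.39 in the lowest young cell, 10.26 in the median one and 12.09 in the highest, against 7.47, 10.66 and 12.18 in the old cells. The ages overlapped over nearly their whole range, and 42 of 62 old cells lay above the young median. Its mean level was 10.03 ± 1.32 (SD over 52 cells) in young and 10.52 ± 0.94 (SD over 62 cells) in old cells, a difference of 0.50. Over all deposited cells the difference was 0.86. *H2-D1*, the Db heavy chain, ran from 5.63 through a median of 9.43 to 11.09 in young cells and from 5.18 through 10.12 to 12.05 in old cells. The lowest cell of all was an old one, yet 7 old cells lay above the highest young cell and 46 of 62 lay above the young median. The mean level of *H2-D1* was 9.16 ± 1.13 in young and 9.88 ± 1.25 in old cells, a difference of 0.72 or 1.64-fold, which placed it 1102nd of 15014 genes from the highest difference. Summed over cells, *H2-D1* had 100116 reads in the young (95% exact Poisson interval 99497 to 100738) and 150214 in the old cells (149455 to 150976). The reads carry no molecular identifiers, so these intervals cover the counting of reads only, and those given below for shares cover the sampling of cells within 1 mouse only.

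*B2m* encodes the light chain, without which heavy chains do not reach the surface. Its level was 8.83 in the lowest young cell, 11.35 in the median one and 12.74 in the highest, and 10.78, 11.97 and 13.32 in the old cells. The ranges overlapped, but 50 of 62 old cells (80.6%) were above the young median, the largest share among the 9 genes, and 7 young cells were below the lowest old one. The mean level was 11.38 ± 0.63 in young and 11.91 ± 0.58 in old cells, a difference of 0.53 or 1.44-fold. *B2m* also varied little within an age. Its coefficient of variation of CPM was 0.408 in young and 0.409 in old cells, in the lowest 1.41% and 1.21% of the 2971 genes that at least 50% of cells expressed. For *H2-K1* the coefficient was 0.684 and 0.579, and for *H2-D1* 0.64 and 0.676.

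Light and heavy chain transcripts were compared within each cell, as *B2m* over the sum of *H2-K1* and *H2-D1*, all per kb. The ratio had a median of 2.76 in young cells, from 0.471 to 23.4, and of 3.07 in old cells, from 0.549 to 13.2. *B2m* exceeded both heavy chains together in 48 of 52 young cells and in 60 of 62 old ones. Between the heavy chains, *H2-K1* exceeded *H2-D1* per kb in 45 of 52 young cells and in 46 of 62 old ones, with a median ratio of 2.52 in young and 1.92 in old cells.

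*Tap1* and *Tap2* encode the subunits of the peptide transporter. *Tap1* was at 0 in the lowest young cell, 1.72 in the median one and 11.12 in the highest, and at 0, 1.61 and 10.85 in the old cells. Its share of expressing cells was nearly equal, 24 of 52 young cells (46.2%, exact Clopper-Pearson 95% interval 32.2 to 60.5) and 29 of 62 old cells (46.8%, 34 to 59.9), although at least 1 read was counted in 35 of 52 and 48 of 62. The mean level was 2.70 in young and 3.03 in old cells. A single cell held 44% of all young and another 35.3% of all old *Tap1* reads. The difference was 0.33 between the means but -0.12 between the medians over cells. *Tap2* had a median of 0 in both ages and a highest cell of 9.53 in young and 10.22 in old. It was expressed in 12 of 52 young cells (23.1%, 12.5 to 36.8) and 20 of 62 old cells (32.3%, 20.9 to 45.3). Among expressing cells, its median was 6.57 in young and 4.32 in old cells. Both subunits were seen together in 9 young and 14 old cells, *Tap1* alone in 15 and 15, and *Tap2* alone in 3 and 6.

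*Tapbp* encodes tapasin, which bridges the heavy chain and the transporter and selects peptides. It was expressed in every cell used, from 3.12 through a median of 5.42 to 10.02 in the young and from 3.29 through 6.07 to 10.34 in the old cells. The ages overlapped almost wholly, with 2 young cells below the lowest old cell and 2 old cells above the highest young one. The cells spread widely at both ages, and 15 young and 15 old cells exceeded a level of 8. The mean level was 6.07 ± 2.14 in young and 6.36 ± 2.01 in old cells. The difference of 0.28 was -0.01 over all deposited cells.

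*Calr* and *Pdia3* encode calreticulin and ERp57, which act as a pair on newly made glycoproteins, class I heavy chains among them. *Pdia3* ran from 0 through a median of 6.15 to 11.03 in young cells and from 0.57 through 8.17 to 10.67 in old cells. The highest cell was young, but 6 young cells were below the lowest old one. Its mean level was 5.52 ± 3.50 in young and 6.85 ± 3.11 in old cells, a difference of 1.34 that placed it 287th of 15014 genes from the highest difference. It was expressed in 39 of 52 young cells (75%, 61.1 to 86.0) and 56 of 62 old cells (90.3%, 80.1 to 96.4), and its median among expressing cells was 7.44 and 8.57. Counting every cell with 1 read or more, the cells numbered 50 of 52 and 62 of 62, and the gap of 15.32 percentage points shrank to 3.85. *Calr* ran from 0 through 6.71 to 10.40 in young cells and from 0 through 5.95 to 9.95 in old cells. Cells without a *Calr* read numbered 2 of 52 and 7 of 62. The mean level was 6.39 ± 2.76 in young and 5.29 ± 3.28 in old cells, a difference of -1.10, and 96.5% of genes ranked above it. The share of expressing cells was 88.5% in the young (46 of 52, 76.6 to 95.6) and 74.2% in the old (46 of 62, 61.5 to 84.5), whereas the median among expressing cells was 7.36 and 7.24. Counting every cell with 1 read or more, the gap in share went from -14.27 to -7.44 percentage points. Scaled to the summed totals, the summed counts gave a difference of 0.68 for *Pdia3* and -0.49 for *Calr*, both below 2-fold. *Calr* was also lower by less than 2-fold over all deposited cells (-0.77), with the limits of Kowalczyk et al. (-0.93) and between medians over cells (-0.77).

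Taken by cell, both chaperone genes were expressed in 37 of 52 young cells and in 43 of 62 old ones. *Pdia3* without *Calr* was found in 2 young and 13 old cells, and *Calr* without *Pdia3* in 9 young and 3 old cells. In both ages a few cells, 4 young and 3 old, expressed neither.

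*Nlrc5* encodes the transactivator of class I genes. It was at 0 in the lowest young cell, 0.53 in the median one and 8.50 in the highest, and at 0, 1.29 and 10.64 in the old cells. It was expressed in 22 of 52 young cells (42.3%, 28.7 to 56.8) and 29 of 62 old cells (46.8%, 34 to 59.9), and 6 old cells were above the highest young one. With a limit of 4 in place of 2, the order of the shares turned, at 36.5% of young and 30.6% of old cells. The mean level was 2.52 in young and 2.96 in old cells, a difference of 0.44. The summed counts, 5732 for all young cells and 14720 for all old cells, gave a larger difference of 1.55, and the highest old cell held 21.5% of the old reads.

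The 9 genes were then set beside all genes. *Pdia3* was the only one higher by at least 1, that is 2-fold, as were 3.91% of the 15014 genes with a count, and *Calr* the only one lower by at least 1, as were 4.49%. Among the 2971 genes that at least 50% of cells expressed, the shares were 8.15% and 8.21%. The 8 of 9 genes that were higher by any amount stand against 46.2% of all genes and 41.7% of the genes that at least 50% of cells expressed. At a threshold of 0.58 (1.5-fold), *H2-D1* joined *Pdia3*, 2 of 9 genes, where 9.69% of all genes were higher and 12.5% lower, and 15.5% and 19.4% of the more widely expressed ones. The median difference over the 9 genes was 0.44, against -0.02 over all genes and -0.11 over the genes that at least 50% of cells expressed. Reads of the 9 genes made up a median of 0.581% of a young and 0.73% of an old cell's counted reads.

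**Figure D2:**
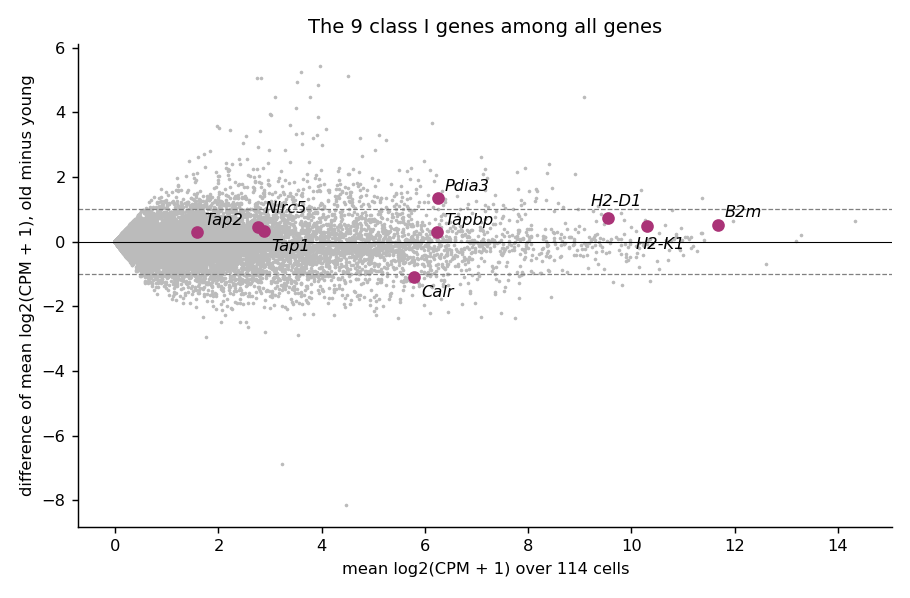
The x axis is the mean log2(CPM + 1) of a gene over the cells used and the y axis its difference, old minus young. Grey points are the 15014 genes with a count, purple points the 9 class I genes, and dashed lines mark a difference of 1 in either direction. *Pdia3* is above the upper line, *Calr* below the lower one, and *H2-D1*, *H2-K1* and *B2m* lie at the high end of expression, between 0.50 and 0.72.

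Other genes of the pathway were described from 6 lists with 93 genes, of which 90 had a count. In all, 20 of the 90 were higher by at least 1 and 3 were lower, beside 3.91% and 4.49% of all genes, and 6 of the 20 are class II genes. Without class II, 14 of 83 were higher by at least 1. By any amount, 46.2% of all genes were higher. Of 19 other class I and class I-like heavy chains, 15 were higher by any amount and 2 by at least 1, with a median difference of 0.24. Several of them, *H2-T23* and *H2-Bl* included, share windows of read length with *H2-K1* and *H2-D1*, so they may not be separate from those genes. The part of shared reads in these differences was not tested. *H2-T23*, the Qa-1 heavy chain read by natural killer cells, was expressed in every cell at 8.42 in young and 9.42 in old cells. *H2-M3*, which binds formylated peptides, differed by 1.27 and *Fcgrt*, the neonatal Fc receptor, by 1.20, both from low levels of 1.12 and 0.35. *H2-Bl* differed by 0.72. Of 9 immunoproteasome and peptide trimming genes, 6 were higher and 3 lower by any amount, 0 differed by at least 1, and the median was 0.41. Among them *Psmb8*, a catalytic subunit of the immunoproteasome, was at 6.66 in young and 7.60 in old cells, and *Psmb10*, another, at 4.74 and 5.27, while the third, *Psmb9*, was at 3.80 and 3.46. The proteasome activators *Psme1* and *Psme2* differed by -0.27 and -0.28. The trimming peptidases *Erap1* and *Lnpep* differed by 0.56 and 0.66.

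Of 15 ER folding chaperones, 1 was higher and 1 lower by at least 1, beside 3.91% and 4.49% of all genes, and the median was 0.27. Like *Pdia3* and *Calr*, they stood on both sides of 0. *P4hb*, a protein disulfide isomerase, was at 4.43 in young and 5.71 in old cells, while *Hsp90b1*, the ER form of the HSP90 chaperone, was at 6.89 and 5.53. *Pdia4* differed by -0.64 and *Ganab*, a subunit of glucosidase II, by 0.69. Of 16 regulators of class I transcription, 3 were higher and 2 lower by at least 1, beside the same shares of all genes, with a median of -0.07. *Irf1*, an interferon-induced activator, was expressed in 32.7% (young) and 66.1% (old) of cells, at 2.68 and 4.28, and *Ifngr1*, a chain of the interferon gamma receptor, differed by 1.09. *Irf2*, which binds the same element as *Irf1*, was lower, at 5.75 in young and 4.04 in old cells, and *Nfya*, a CCAAT-binding factor, differed by -1.07.

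Of 24 interferon-stimulated genes, 8 were higher by at least 1 and 0 lower, beside 3.91% and 4.49% of all genes, and the median was 0.42. By any amount, 18 were higher and 6 lower, where 46.2% of all genes were higher. *Iigp1*, *Igtp* and *Gbp7*, interferon-induced GTPases, differed by 3.31, 2.04 and 2.09, and *Oasl2* by 1.88, whereas *Ifit2* differed by -0.63, *Oas1a* by -0.44 and *Isg15* by -0.23. *Iigp1* was expressed in 28.8% (young) and 71% (old) of cells. Of 7 MHC class II genes, which present peptides from outside the cell, 6 were higher by at least 1, with a median of 2.61. *H2-Ab1* was expressed in 11.5% (young) and 62.9% (old) of cells at levels of 0.87 and 4.80, *H2-Aa* at 0.88 and 4.79, *Cd74*, the invariant chain, at 0.77 and 4.03, and *H2-Eb1* at 0.18 and 2.79. These class II differences are several times those of *H2-K1*, *H2-D1* and *B2m*.

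**Figure D3:**
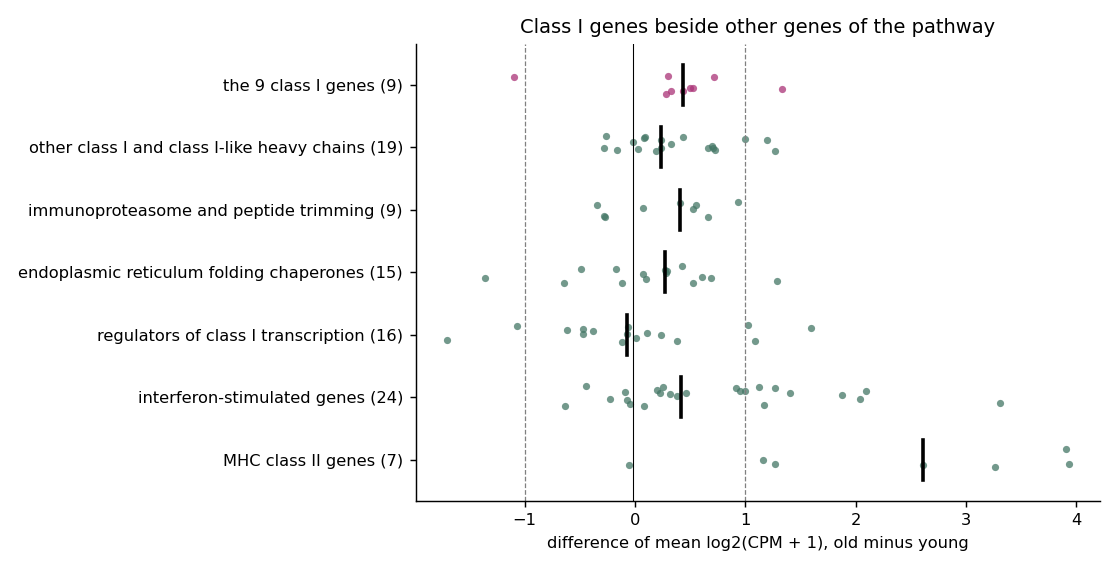
Each point is a gene, plotted on the x axis at its difference of mean log2(CPM + 1), old minus young, in rows for the 9 class I genes and the 6 lists, with the number of genes in brackets. Thick bars are medians, dashed lines mark a difference of 1, and the thin line is the median of all genes. The class II row lies far to the right of the class I row, with medians of 2.61 and 0.44.

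Transcripts of mature cells that carry much class I or class II were examined next to these values. Of 8 dendritic cell markers, 4 had a count, and their summed CPM ran from 17.7 to 876 in young and from 9.44 to 1220 in old cells. *Xcr1* was expressed in every cell of both ages, at 5.03 and 4.86, as was the stromal marker *Lepr*, at 5.59 and 5.67. The source of the *Xcr1* and *Lepr* reads was not tested. *Clec9a* was expressed in 1 young and 11 old cells, *Siglech* in 2 and 5, *Flt3* in 5 and 2, and *Zbtb46* was at 0. The median difference of the 4 dendritic cell markers with a count was -0.14. Of 8 B cell markers, only *Cd79b* had a count, in 23.1% and 25.8% of cells, with summed CPM of 0 to 1110 in young cells and 0 to 797 in old ones, and *Vpreb3* was at 0. Of 9 monocyte and macrophage markers 5 had a count, with summed CPM of 0 to 1330 (young) and 0 to 1560 (old). Among them *Lyz2* was expressed in 82.7% and 69.4% of cells and *C1qa* in 0 of 52 and 0 of 62, where a floor of 3 cells is 5.77% and 4.84% of the cells and limits cells with detected transcript only. Of 9 T and NK cell markers 6 had a count, with summed CPM of 0 to 481 and 0 to 1360. Their median difference was -0.01, and 2 of the 6 were higher by any amount, where 46.2% of all genes were higher. *Klrb1c* was expressed in 0 young and 9 old cells, whereas *Lck* was expressed in 11 young and 6 old cells. Of 8 granulocyte markers 6 had a count, with a median difference of 0.01, and 3 of the 6 were higher by any amount, beside the same 46.2% of all genes. *Prtn3* was at 4.62 in young and 7.11 in old cells, while each of the others was expressed in at most 4 cells of an age. Of 8 megakaryocyte and platelet markers 7 had a count, with a median summed CPM of 58.2 for young cells (0 to 1650) and 195 for old cells (0 to 4470). The median difference of these 7 was 0.09. Of them, 4 were higher by any amount and 0 by at least 1, where 46.2% and 3.91% of all genes were. The part of such transcripts in the class I values was not tested. All 18 genes of a cell cycle list had a count, and 13 of them were lower in old cells by at least 1, beside 4.49% of all genes.

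Whether the 9 genes varied together from cell to cell was examined within each age by Spearman correlation of log2(CPM + 1). The cells of an age share a mouse and differ in depth, so the coefficients are descriptions. Over the 36 pairs, the median rho was 0.06 in 52 young and 0.08 in 62 old cells. Over all pairs of 2661 genes that at least 50% of the cells of each age expressed it was 0.03 in both, with 5% of pairs above 0.32. In young cells 0 of the 36 pairs exceeded the 95th percentile of all pairs and in old cells 2 did (5.56%), about the share that such a limit leaves above it. *Tap1*, *Tap2* and *Nlrc5* fall below the expression limit of those 2661 genes. Among the 15 pairs of the other 6 genes, 0 in young and 1 in old cells exceeded it. The pairs in old cells were the chaperones *Calr* and *Pdia3*, with a rho of 0.37 in old and 0.28 in young cells, and the transporter subunits *Tap1* and *Tap2*, with 0.33 and 0.24. The light chain did not follow the heavy chains, with a rho of *B2m* to *H2-K1* of -0.13 in young and -0.03 in old cells, and to *H2-D1* of 0.01 and 0.14. The lowest pair was *B2m* and *Pdia3* in young cells at -0.28, against -0.01 in old cells. *Nlrc5* had a rho to *Tap1* of 0.15 in young and 0.23 in old cells, and to *H2-K1* of 0.06 and -0.04.

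**Figure D4:**
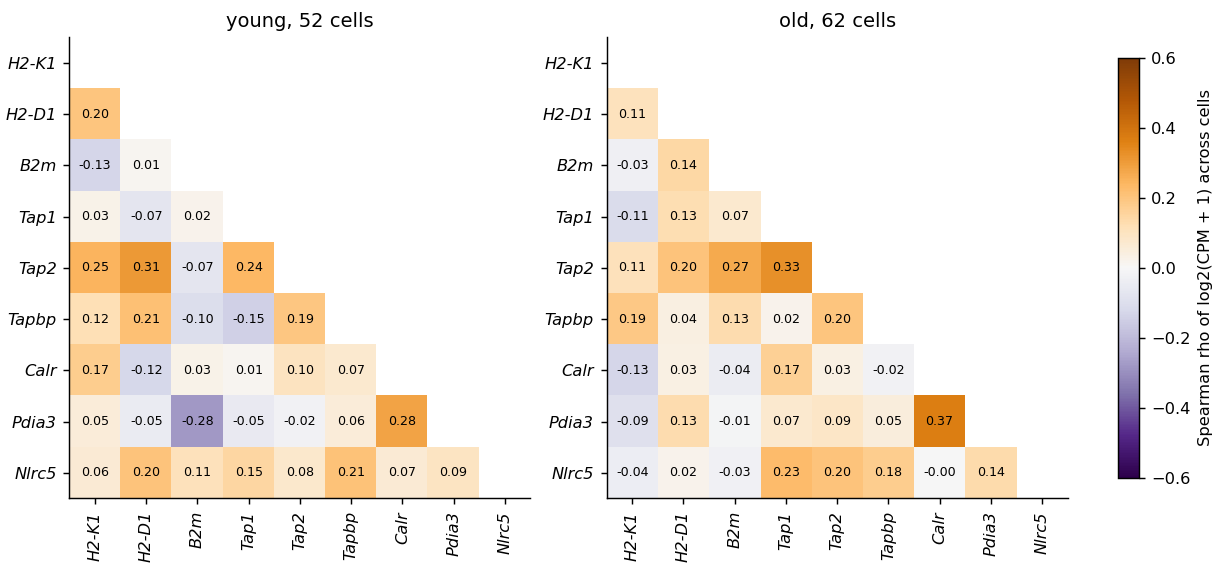
Spearman rho of log2(CPM + 1) for each pair of the 9 genes across the 52 young cells (left) and the 62 old cells (right), with the gene names on both axes and the colour scale running from -0.6 to 0.6. Most squares are pale, and the darkest are *Calr* with *Pdia3* and *Tap1* with *Tap2* in old cells.

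The genes whose pattern across cells was most like that of a heavy chain were other heavy chain genes. For *H2-D1*, the highest mean of the rho in both ages was with *H2-Q1* (0.69), *H2-Q10* (0.67) and *Gm7030* (0.63), and for *H2-K1* with *H2-Q2* (0.52), *H2-Q10* (0.49) and *Gm8909* (0.48), among 2661 genes. Each of these shares windows of read length with the chain it follows. *H2-D1* holds 149 windows of *H2-Q1*, 65 of *H2-Q10* and 99 of *Gm7030*, and *H2-K1* holds 25 of *H2-Q2*, 39 of *H2-Q10* and 33 of *Gm8909*. The part of shared reads in these correlations was not tested. *B2m*, which shares no window, was closest to *Uqcrh*, a respiratory chain subunit (0.40), *Fth1*, the ferritin heavy chain (0.39), and *Sepw1*, a selenoprotein (0.35).

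The 9 genes were also set against the other lists from cell to cell. Against the mean level of the interferon-stimulated genes, rho for the 9 genes lay between -0.18 and 0.24 in young and between -0.18 and 0.16 in old cells. For class II the mean level of *H2-Aa*, *H2-Ab1*, *H2-Eb1* and *Cd74* was used, without the other genes of that list. Against it, rho lay between -0.27 and 0.24 in young and between -0.08 and 0.28 in old cells, where *H2-D1* was highest. Against the cell cycle list rho lay between -0.09 and 0.25 in young and between -0.20 and 0.27 in old cells. With the number of genes expressed in a cell, the highest rho was 0.44 for *Pdia3* in young and 0.32 for *Calr* in old cells, and the counted reads of a cell had a rho between -0.29 and 0.14 in young and between -0.16 and 0.08 in old cells.

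The age differences were recomputed with other cells, scales and normalizations. *H2-D1* lay between 0.61 and 0.79, *B2m* between 0.46 and 0.62 and *H2-K1* between 0.38 and 0.86 under every one of these. *Pdia3* lay between 0.68 and 2.02 and *Calr* between -1.40 and -0.49. Without the cells that went against their mouse in sex-linked genes, *Pdia3* differed by 1.72, *Calr* by -1.15, *H2-D1* by 0.63 and *Nlrc5* by 0.25.

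**Figure D5:**
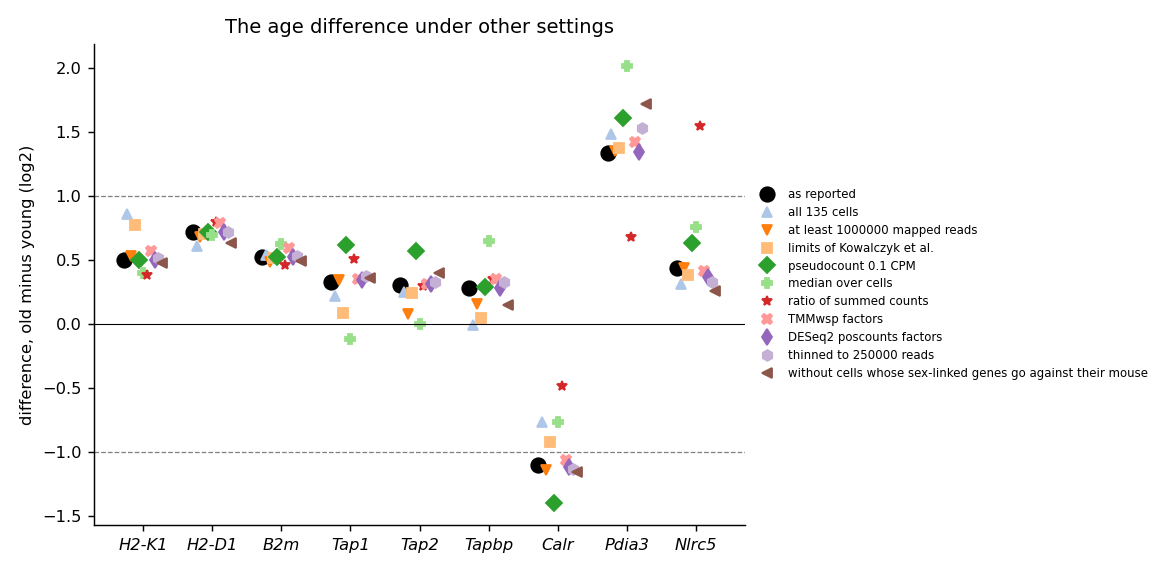
The difference, old minus young, on the log2 scale (y axis) for each of the 9 genes (x axis), as reported (black circles) and under each other setting (the other symbols). *H2-K1*, *H2-D1* and *B2m* stay above 0 and below 1, *Pdia3* above 0 and *Calr* below 0 under all of them, while *Tap1*, *Tap2* and *Tapbp* reach 0 or just below it under at least 1.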

How the data were processed

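Single HSCs were captured on the Fluidigm C1 system, cDNA of polyA RNA was amplified, and Nextera XT libraries were sequenced as single 51-base reads. The authors mapped the reads to mm10 with TopHat2 2.0.10 (per the submitters' processing notes), keeping 1 alignment per read, and deposited raw counts per RefSeq gene for 61 young and 74 old cells. Counting is not stated to use strand. Counts were scaled to CPM over each cell's total, with a pseudocount of 1 CPM. The cells used had at least 500000 mapped reads, at most 10% of them mitochondrial, and at least 3000 detected genes. Gene positions and transcripts were taken from GENCODE vM21 and promoters from RefSeq.

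The 9 genes and all lists were chosen with earlier results of these data known. No test was made and no doublet caller was run. Genes named from a list are at most 4 per list, those with the largest absolute difference among genes that at least 10% of cells expressed. For *H2-K1*, *H2-D1* and *B2m* they are the 3 genes of highest rho outside the 9. Markers named are those at 0 and the highest. *Cd48* and *Slamf1*, the genes of the sort, were named beyond this rule. So were *Clec9a*, *Flt3*, *Siglech*, *Klrb1c*, *Lck*, *Itgam*, *Cd4*, *Cd8a*, *Psmb9*, *Psme1*, *Psme2*, *Ifit2*, *Oas1a* and *Isg15*, chosen after their values were seen. Analyses ran in Python 3.11.15 (scipy 1.17.1, numpy 2.4.6, pandas 2.3.3) and R 4.3.3, with edgeR 4.0.16 and DESeq2 1.42.0 for size factors only. Only the computation of the age difference was run on simulated data, with changes larger than the differences reported for the 9 genes. The other steps were not. An alternative counted as the same where a fold or count moved by less than 1.5 times, a share by less than the width of its interval above or below, or a rho by less than 0.05, and the one on sex-linked genes was added after seeing the data.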

Additional observations from a re-analysis of the deposited data

How the results depend on the processing

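Among the main values, 58 of the recomputed ones stayed within the limits given in the methods and 8 did not. The count of genes lower by at least 1, which is 1 (*Calr*), was 0 over all deposited cells, 0 with the limits of Kowalczyk et al., 0 with medians over cells and 0 with summed counts. The count of genes higher was 2 with a threshold of 0.58 in place of 1. The count of pathway genes lower, 3 as reported, was 6 with a pseudocount of 0.1 CPM, 7 with medians over cells and 6 with summed counts. The number of the 9 genes that were higher in old cells was 7 over all deposited cells and 6 with medians over cells. TMMwsp and poscounts size factors, at least 1000000 mapped reads, thinning to 250000 reads and leaving out cells by their sex-linked genes moved none of these counts by more than 1.5 times. The causes were not tested. Of the values for single genes and pairs, 12 moved and 186 did not. No replicate could be left out, since each age is 1 mouse. No paired analysis was possible because the labels give no replicate numbers that the ages share. A cell at 0 for *Tap1*, *Tap2* or *Nlrc5* may hold transcripts that were not captured.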
